A study of Mus musculus with 18 samples.

Results

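The genes described here are 10 feedback regulators of MAP kinase signalling: the dual-specificity phosphatases Dusp1, Dusp2, Dusp4, Dusp5, Dusp6 and Dusp16, the Spred family members Spred1 and Spred2, and the Sprouty family members Spry1 and Spry2. They were chosen by name, with earlier results of these data known, so their counts beside the shares of all genes are descriptions only. Of the 45101 probe sets on the array, 23 were annotated to them. Where a gene had several, the brightest on average stands for it. All 10 were among the 12257 genes tested. A probe set was kept if 3 or more arrays exceeded an intensity of 18.1 (the overall median), and 18 of the 23 did so. Spry2 was above that level on 12 of the 18 arrays and Dusp6 on 17, and the other 8 genes were above it on all 18.

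RAW cells, a mouse cell line of macrophage type, were measured in 4 arms. Cells received R848 with apilimod, R848 with API09, R848 alone, or medium alone, with 1 array per arm at 1, 3, 7 and 22 h and 2 further arrays of medium at 0 h. R848 is a small synthetic agonist of Toll-like receptor 7, given at 0.1 mM in the labels, which is high and may be an error of unit. Apilimod, which inhibits the lipid kinase PIKfyve, and API09, named in the series design as an analog without activity, were both used at 1 uM. All arms are 1 immortal cell line, and no primary macrophages were measured. The labels do not say that the arrays came from separate cultures, so p-values reflect only how these arrays vary, and part of that may be technical. The number of arrays limits the precision.

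MAP kinases (ERK, JNK and p38) are switched on by phosphorylation after Toll-like receptors are engaged, and they drive the transcription of cytokine and immediate-early genes. Dual-specificity phosphatases remove both activating phosphates, and many of them are themselves transcribed in answer to the kinase activity, so that they close a negative feedback loop. Sprouty and Spred proteins act further upstream, where they restrain the activation of Ras and Raf.

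The promoters of these genes show which signal-dependent elements lie next to their starts. RefSeq promoters (build GRCm38.p6) were matched by symbol for 9 of the 10 genes, all but Dusp4, and the 250 bases upstream of each annotated start were searched on both strands. The 4 stretches below, each the last 150 bases before the start and written 5′ to 3′ on the gene's strand, belong to the 4 genes that fell most with apilimod at 7 h, and were picked with those values known. Capitals mark motif matches. Dusp1 lies at chr17:26508473-26508622 on the minus strand. Dusp2 lies at chr2:127336009-127336158, Dusp5 at chr19:53528995-53529144 and Dusp6 at chr10:99263081-99263230, all on the plus strand.
Dusp1: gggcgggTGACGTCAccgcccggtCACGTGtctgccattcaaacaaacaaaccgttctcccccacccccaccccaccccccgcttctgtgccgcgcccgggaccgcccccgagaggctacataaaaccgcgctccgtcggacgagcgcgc
Dusp2: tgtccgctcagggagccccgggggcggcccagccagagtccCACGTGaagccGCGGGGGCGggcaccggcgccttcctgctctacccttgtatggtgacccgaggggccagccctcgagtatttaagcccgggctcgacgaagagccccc
Dusp5: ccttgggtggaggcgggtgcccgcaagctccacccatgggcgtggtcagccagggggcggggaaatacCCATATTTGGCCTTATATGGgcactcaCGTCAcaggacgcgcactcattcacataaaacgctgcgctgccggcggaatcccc
Dusp6: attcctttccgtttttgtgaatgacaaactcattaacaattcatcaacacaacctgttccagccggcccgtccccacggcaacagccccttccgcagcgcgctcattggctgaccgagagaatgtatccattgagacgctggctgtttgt

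The Dusp1 stretch held a full cyclic AMP response element (CRE, TGACGTCA) 143 to 136 bases before the start and an E-box (CACGTG) at 126 to 121. A further CRE core (TGACG, which the full CRE contains) lay at 191 to 187, outside the printed bases. Dusp2 held the same E-box at 109 to 104 and an EGR site (GCGGGGGCG) at 98 to 90. Dusp5 held 2 adjacent CArG boxes, the element bound by serum response factor, at 82 to 73 and 72 to 63, and a CRE core on the other strand at 55 to 51. Dusp6 held no match to any of the 7 motifs searched. A CRE core was also found in Dusp16, whose RefSeq start lies inside the span of the gene and not at its end, and in Spred2, while Spred1, Spry1 and Spry2 had no match, and the AP-1 motif (TGANTCA) and the NF-kB site were found in none of the 9. Among 32851 RefSeq promoters of the same length, 1.55% held the CRE, 17.8% the CRE core, 1.47% a CArG box, 2.57% the EGR site, 6.02% the E-box, 6.75% the AP-1 motif and 3.90% the NF-kB site. A match is a string of letters and not a measured binding site, and no binding was measured here.

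**Figure D1:**
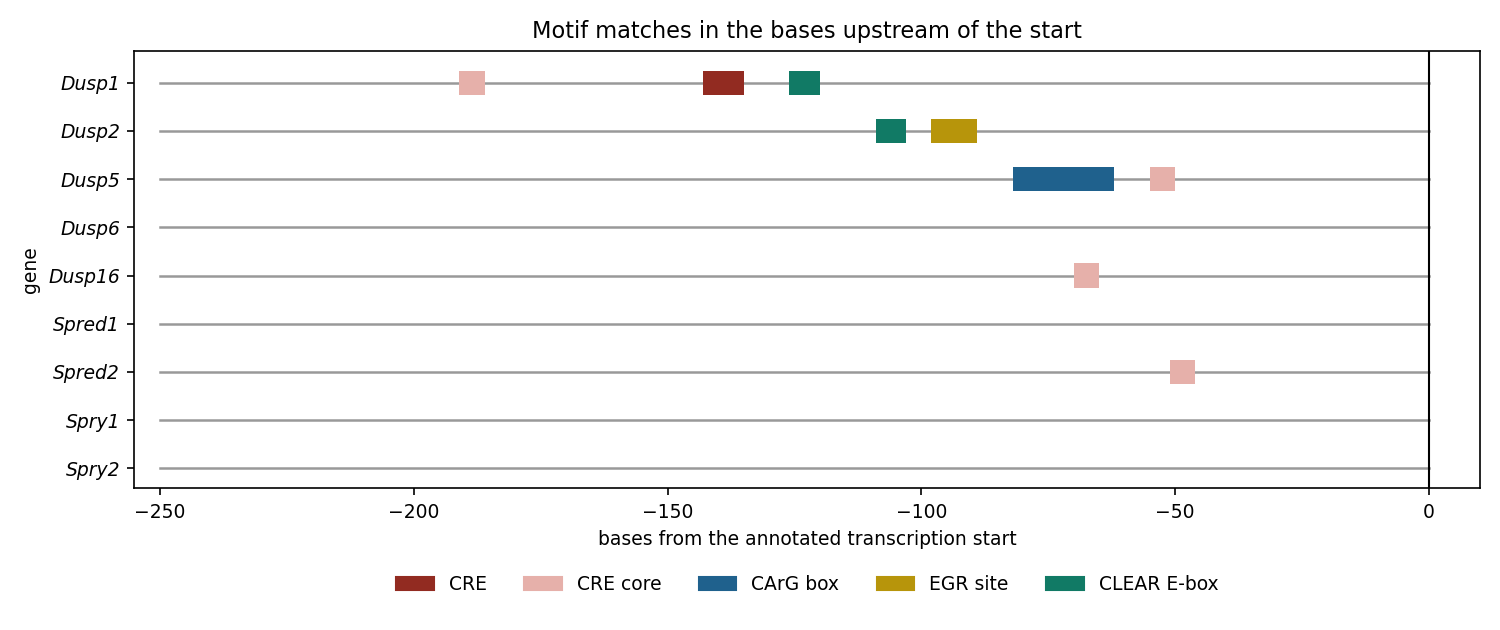
Motif matches in the 250 bases upstream of the annotated start of 9 of the genes. The horizontal axis gives the distance from the start in bases, and coloured blocks are matches. The full CRE of Dusp1 is drawn over the CRE cores it contains, and the label CLEAR E-box stands for any CACGTG. The blocks lie on Dusp1, Dusp2, Dusp5, Dusp16 and Spred2, and the wide block on Dusp5 is its 2 adjacent CArG boxes.

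The arrays were of like brightness, with median intensities of 17.5 to 19.2. The upper quartile was 110.5 to 118.6 on all arrays but the 3 of stimulated cells at 22 h. There it was 101 with apilimod, 87.0 with API09 and 104 with R848 alone. The shares of all genes called for R848 against medium at 22 h changed with scaling. Without further scaling, 2027 of 5597 called genes were higher, and with arrays centred on the median 4505 of 6824. The 10 genes described here had 5 higher and 1 lower in both. Beyond such reruns, the part of the lower quartiles in the results at 22 h was not tested. All 10 macrophage markers examined were above the filter level on all 18 arrays, and their summed intensity was 46818 to 58250 with apilimod, 48901 to 57839 with API09, 50728 to 58435 with R848 alone and 50608 to 58144 in medium. Single markers in that list nevertheless differed between the arms. With apilimod, against R848 and R848+API09, the calls upward numbered 0, 1 and 2 and those downward 1, 4 and 4 at 3, 7 and 22 h. Of all genes 5.07%, 9.81% and 20.2% were higher and 4.12%, 9.81% and 14.3% lower at these hours. At 7 h Fcgr1 (-3.25 ± 0.13, log2) and Itgam (-2.20 ± 0.10) were lower and Cd68 (0.49 ± 0.10) was higher. At 22 h Itgam (-1.99 ± 0.10) and Fcgr1 (-1.75 ± 0.13) were still lower, and Cd68 (0.78 ± 0.10) and Laptm5 (0.73 ± 0.11) were higher. With R848 against medium, the marker calls numbered 2, 5 and 6 upward and 1, 2 and 2 downward at 3, 7 and 22 h. The shares of all genes were 6.23%, 11.3% and 16.5% upward and 9.19%, 18.5% and 29.1% downward. Itgam and Fcgr1, named above as lower with apilimod, were higher with R848, at 2.42 ± 0.10 and 1.54 ± 0.13 at 7 h. At 22 h Itgam was at 2.46 ± 0.10, Fcgr1 at 1.85 ± 0.13, Adgre1 at 1.83 ± 0.11 and Csf1r at -1.55 ± 0.12. The part of these markers in the results was not tested. None of 4 fibroblast markers was above the filter level on any array. Of the T cell markers Cd3g and Cd2 were above it on none and Cd3e was at 25.1 to 39.4 on all, and of 3 B cell markers found only Cd79a was above it, on 2 arrays. Of 4 epithelial markers Epcam was at 42.9 to 61.0 and Krt8 at 19.9 to 26.8 on all arrays, and the other 2 were above it on none. In such bulk samples, fewer cells of a kind and less RNA per cell cannot be told apart.

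R848 was set against medium at each hour. The R848+API09 and R848 arrays of an hour served together as 2 control arrays, called R848 controls, and the spread came from these pairs and the 2 medium arrays at 0 h; the lone arrays of the other arms are assumed to vary alike. Differences are in log2(intensity + 16) with their standard errors (SE), which understates changes of dim genes. A gene was called at an adjusted p under 0.05 (limma, Benjamini-Hochberg over all 12257 genes).

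R848 raised 4 of the 6 phosphatases within 1 h and 5 of the 6 at each later hour, while no Sprouty or Spred gene was called higher. At 1 h, 4 members were higher and none lower, where 0.636% of all genes were called higher and 0.0653% lower. At 3 h, 5 were higher and 2 lower, against backgrounds of 6.23% and 9.19%. At 7 h, 5 were higher and none lower (11.3% and 18.5% of all genes), and at 22 h, 5 were higher and 1 lower (16.5% and 29.1%). The shares of all genes at 22 h change with the scaling of the arrays, as given above. The median difference over the 10 was 0.14, 0.60, 0.70 and 0.24 at 1, 3, 7 and 22 h, and that over all genes was -0.01, -0.03, -0.04 and -0.03.

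Dusp1 encodes a nuclear phosphatase of p38 and JNK that limits cytokine output in macrophages. Its intensity on the R848+API09 and R848 arrays was 7285 and 6361 at 1 h, against 575 in medium, and 591 and 567 at 3 h, against 204. It was 1994 and 1809 at 7 h, against 139 in medium, and 869 and 983 at 22 h, against 107. All stimulated arrays lay above the medium array of their hour, with peaks at 1 h and 7 h and a trough between them at 3 h. The differences were 3.53, 1.44, 3.63 and 2.93 at 1, 3, 7 and 22 h (SE 0.11 each), and the adjusted p was 1.59e-08 at 1 h and 1.86e-09 at 7 h. Between hours, the R848 controls fell by 3.52 ± 0.09 at 3 h relative to 1 h and were higher by 1.69 ± 0.09 at 7 h relative to 3 h (adjusted p 1.36e-09 and 3.42e-07).

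Dusp2, a nuclear phosphatase found mainly in blood cells, was at 1051 and 985 on the R848+API09 and R848 arrays at 1 h, against 119.9 in medium, and at 496 and 518 at 3 h, against 75.8. It was at 933 and 953 at 7 h, against 89.8 in medium, and at 349 and 409.7 at 22 h, against 45.2. The groups did not overlap at any hour, and the differences were 2.93, 2.51, 3.18 and 2.69 (SE 0.11 each). Dusp5, a nuclear phosphatase specific for ERK, was at 1022 and 912 at 1 h, against 179 in medium, at 674 and 675 at 3 h, against 101, at 837 and 679.6 at 7 h, against 63.4, and at 143 and 164 at 22 h, against 56.9. Its differences were 2.33, 2.56, 3.28 and 1.22 (SE 0.15 each), the smallest of them at 22 h, and the controls had changed by -2.19 ± 0.12 between 7 and 22 h (adjusted p 1.23e-07).

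Dusp4, a nuclear phosphatase of ERK and JNK, had a short response. It was at 819 and 714 on the R848+API09 and R848 arrays at 1 h, against 437 in medium, at 633 and 667 at 3 h, against 258, at 249.6 and 229 at 7 h, against 186, and at 81.0 and 103 at 22 h, against 98.7. The difference was 0.79 ± 0.13 at 1 h and 1.28 ± 0.13 at 3 h, both called, and 0.34 ± 0.13 at 7 h and -0.10 ± 0.13 at 22 h, which were not. The call at 1 h was lost with a pseudocount of 1 (adjusted p 0.0579) and when the R848+API09 array was set aside (adjusted p 0.132). The 7 h difference passed under 4 alternatives, among them quantile normalization (adjusted p 0.0237).

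Dusp6, a cytoplasmic phosphatase specific for ERK, and Dusp16, a phosphatase of JNK and p38, rose late. Dusp6 was at 197 and 209 on the R848+API09 and R848 arrays at 1 h, against 216 in medium, at 62.9 and 70.0 at 3 h, against 73.1, at 258 and 232 at 7 h, against 108, and at 106 and 144 at 22 h, against 91.0. The dip at 3 h was thus in medium and stimulated cells alike, and the differences were called at 7 h (1.07 ± 0.14) and at 22 h (0.39 ± 0.14), but the 22 h call failed under 4 alternatives and its value was 0.58 to 0.66 under 4 others. Dusp16 was at 123 and 129 at 1 h, against 131 in medium, at 299 and 282 at 3 h, against 113, at 577 and 605 at 7 h, against 85.5, and at 252 and 277 at 22 h, against 88.6. Its difference was -0.05 ± 0.09 at 1 h and 1.25, 2.58 and 1.42 (SE 0.09 each) at 3, 7 and 22 h.

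Spred1, which brings neurofibromin to the membrane to hold Ras in check, was at 1187 to 1709 on the R848 control arrays of 1, 3 and 7 h, against 1324 to 1505 in medium. At 22 h it was at 545 and 604, against 1401 in medium, a difference of -1.26 ± 0.11 (adjusted p 5.37e-06). Spred2, its relative, was lower at 3 h, with 132 and 141 against 255 in medium (-0.83 ± 0.10), and the value was -0.44 when the probe sets of the gene were averaged. At 7 h its difference of -0.28 ± 0.10 missed the threshold (adjusted p 0.0542), but passed under 4 alternatives, among them quantile normalization (adjusted p 0.0273). Spry2, an inhibitor of growth factor signalling to ERK, was dim, and at 3 h it was at 14.9 and 13.5 on the R848+API09 and R848 arrays, against 24.4 in medium. That difference of -0.42 ± 0.10 became -0.74 with a pseudocount of 1. Spry2 was not called at 7 h (0.23 ± 0.10) or 22 h (-0.23 ± 0.10), but passed at 7 h with centred arrays (adjusted p 0.0357) and at 22 h with a pseudocount of 1 (adjusted p 0.0406) and with quantile normalization (adjusted p 0.0437). Spry1 was at 29.7 to 42.1 on all 18 arrays, with differences of -0.09 to 0.11 and no call.

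**Figure D2:**
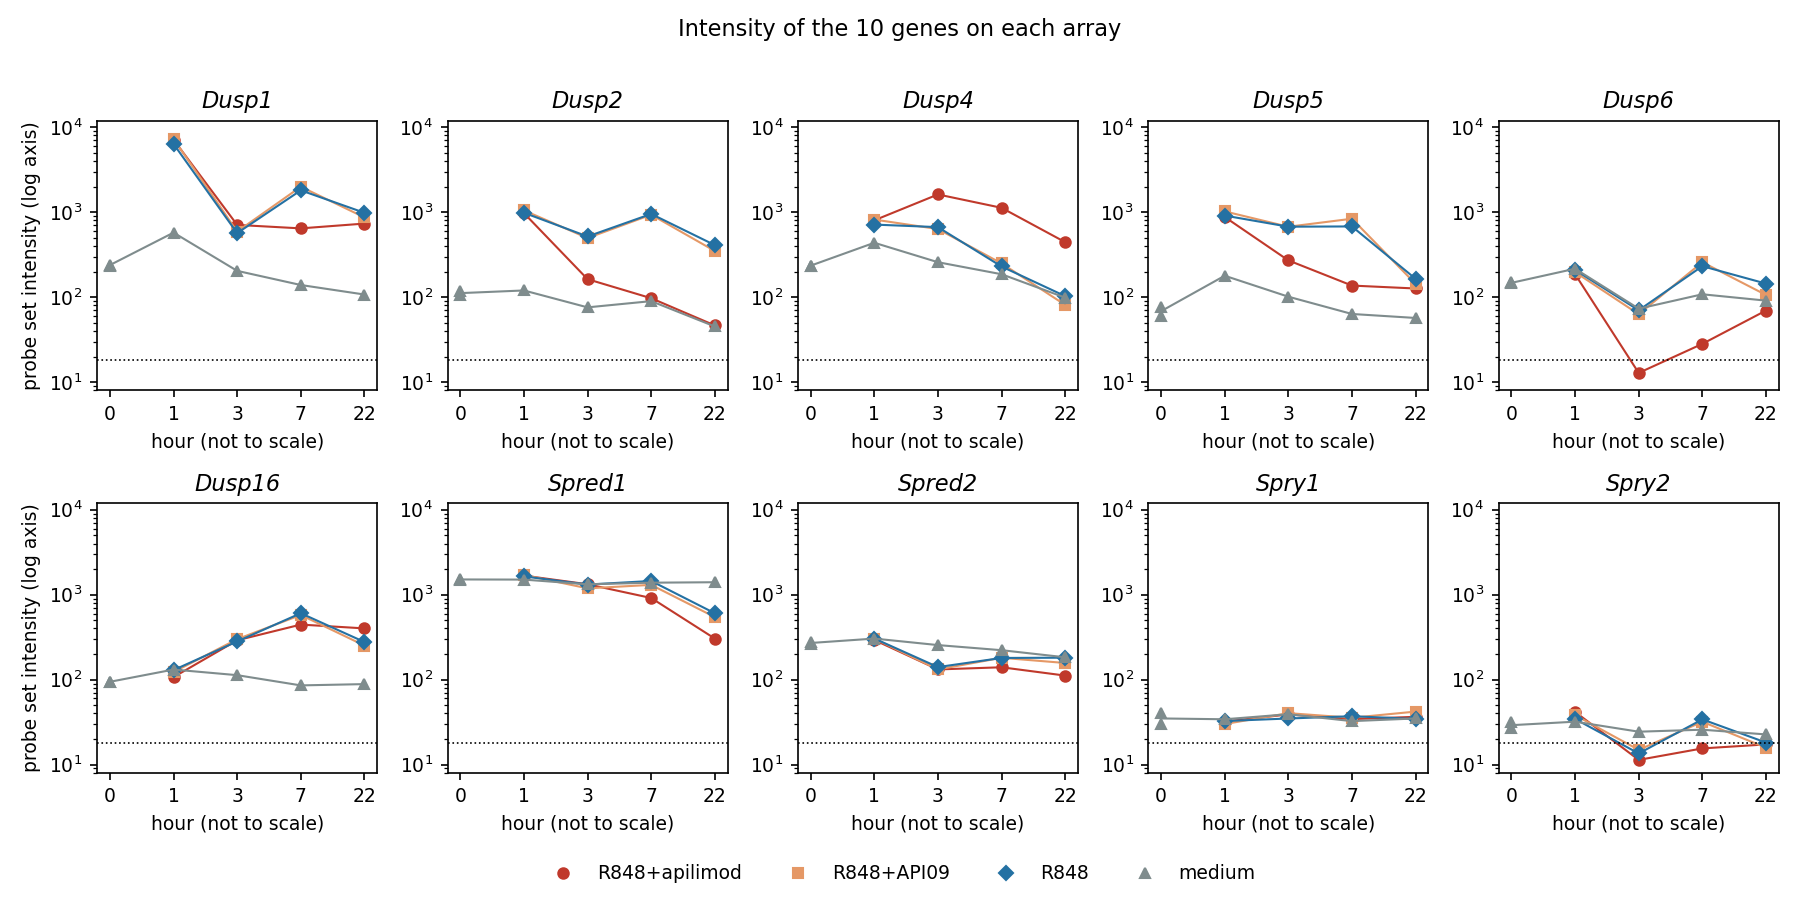
Probe set intensity (log axis) of the 10 genes on each of the 18 arrays by hour; points are single arrays, colours and shapes give the arm, and the dotted line is the filter level of 18.1. Dusp1 lies between 6361 and 7285 on the 3 stimulated arrays at 1 h, Dusp2 with apilimod meets medium at 7 and 22 h, and Dusp4 with apilimod lies above the other arms at 3, 7 and 22 h.

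Medium alone also moved some of these genes. At 1 h in medium, 3 members were higher than at 0 h and none lower (0.261% and 0.147% of all genes). Dusp1 was at 575 at 1 h, against 235 and 242 on the 0 h arrays (1.22 ± 0.11, adjusted p 0.000889). Dusp5 was at 179, against 76.9 and 59.7 (1.21 ± 0.15), and Dusp4 at 437, against 235 and 235 (0.85 ± 0.13). The Dusp4 call was lost without either 0 h array and with a pseudocount of 1.

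Later in medium the calls were all downward. At 3 h, Dusp6 alone was lower, at 73.1 against 149.5 and 145 at 0 h (-0.87 ± 0.14), where 0.514% of all genes were higher and 0.457% lower. At 7 h, Dusp1 alone was lower, at 139 (-0.72 ± 0.11), with 0.139% and 0.204% of genes called. Neither of these calls held without either 0 h array. At 22 h, 5 members were lower and none higher, with 11.2% of genes higher and 10.8% lower: Dusp1 (-1.04 ± 0.11), Dusp2 (-1.06 ± 0.11), Dusp4 (-1.13 ± 0.13), Dusp6 (-0.61 ± 0.14) and Spred2 (-0.52 ± 0.10). The Dusp6 call was lost without the first 0 h array (adjusted p 0.0570) and the Spred2 call with averaged probe sets (-0.25, adjusted p 0.0636).

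In the R848 controls, most members were lower at 3 h than at 1 h, higher at 7 h than at 3 h, and lower at 22 h than at 7 h. From hour to hour, 1 was higher and 7 lower at 3 h (9.92% and 15.1% of all genes), 6 higher and 1 lower at 7 h (12.5% and 11.9%), and none higher and 8 lower at 22 h (29.8% and 29.2%). Dusp4 went its own way between 3 and 7 h, with a fall by 1.38 ± 0.10, while Dusp1 (1.69 ± 0.09), Dusp6 (1.66 ± 0.12), Dusp16 (0.99 ± 0.08), Dusp2 (0.88 ± 0.09), Spry2 (0.70 ± 0.08) and Spred2 (0.37 ± 0.08) rose.

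Apilimod was then set against the R848 controls of the same hour. These controls are the arrays that were also set against medium, so the 2 sets of differences share them. At 1 h 0% of all genes were called higher and 0% lower in limma. With trend and robust variances 1 gene, not a member, was called. An unadjusted p under 0.05 was reached by 165 of 12257 genes, 1 of them a member (Dusp16, -0.21 ± 0.09). That is fewer genes than this threshold would pass by chance. The spread of each gene was shared by all hours, so differences at 1 h may have been missed. At 3 h, 1 member was higher and 3 lower, against 5.07% and 4.12% of all genes. At 7 h, 1 was higher and 8 lower, where 9.81% of genes were called in each direction, and at 22 h, 2 were higher and 5 lower, against 20.2% and 14.3%. The median over the 10 was -0.03, -0.02, -0.61 and -0.29 at 1, 3, 7 and 22 h, and over all genes 0.00, -0.03, -0.02 and 0.03.

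With apilimod Dusp4 was higher and Dusp2 and Dusp6 were lower at 3, 7 and 22 h, and Dusp5 was lower at 3 and 7 h. Dusp4 was at 802 with apilimod at 1 h, against 819 and 714 on the R848+API09 and R848 arrays, and at 1618 at 3 h, against 633 and 667. It was at 1126 at 7 h, against 249.6 and 229, and at 444 at 22 h, against 81.0 and 103. The apilimod array lay between the controls at 1 h and above both afterwards. The differences were 1.30, 2.16 and 2.10 at 3, 7 and 22 h (SE 0.13 each), with adjusted p of 4.85e-05, 3.86e-07 and 5.14e-07. In intensity the apilimod level was 2.49, 4.70 and 4.83 times the mean of the controls.

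Dusp2 with apilimod was at 975, 163, 97.2 and 46.4 at 1, 3, 7 and 22 h. The R848+API09 and R848 arrays were at 1051 and 985, 496 and 518, 933 and 953, and 349 and 409.7, and the medium arrays at 119.9, 75.8, 89.8 and 45.2. The apilimod array was thus just below both controls at 1 h, between them and medium at 3 h, and within 1.08 times the medium level at 7 and 22 h. The differences from the controls were -1.55, -3.08 and -2.66 at 3, 7 and 22 h (SE 0.11 each; adjusted p 4.03e-06, 1.02e-08 and 4.95e-08).

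Dusp5 with apilimod was at 879 at 1 h, against 1022 and 912 on the R848+API09 and R848 arrays, at 271 at 3 h, against 674 and 675, at 137 at 7 h, against 837 and 679.6, and at 126 at 22 h, against 143 and 164. The apilimod array stayed above medium at each hour, by 2.16 times at 7 h. The difference was called at 3 h (-1.27 ± 0.15) and 7 h (-2.33 ± 0.15) and not at 22 h (-0.25 ± 0.15, adjusted p 0.230).

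Dusp6 with apilimod was at 186 at 1 h, against 197 and 209 on the R848+API09 and R848 arrays, at 12.8 at 3 h, against 62.9 and 70.0, at 28.2 at 7 h, against 258 and 232, and at 69.5 at 22 h, against 106 and 144. From 3 h on it was below the medium arrays as well, which were at 73.1, 108 and 91.0. Whether it differed from medium was not tested. The value at 3 h was the one Dusp6 reading below the filter level. The differences were -1.52, -2.56 and -0.71 at 3, 7 and 22 h (SE 0.14 each), and with a pseudocount of 1 the 3 h value was -2.29.

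Dusp1 had its first peak with apilimod but not the one at 7 h. It was at 7123 at 1 h, against 7285 and 6361 on the R848+API09 and R848 arrays, at 708 at 3 h, against 591 and 567, at 645 at 7 h, against 1994 and 1809, and at 734 at 22 h, against 869 and 983. The differences were 0.07 ± 0.11 at 1 h and 0.28 ± 0.11 at 3 h, neither called, then -1.54 ± 0.11 at 7 h (adjusted p 2.23e-06) and -0.33 ± 0.11 at 22 h (adjusted p 0.0459). The 22 h call was lost under 5 alternatives, such as R848+API09 alone as the control (adjusted p 0.0996).

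Dusp16 with apilimod was at 107, 291, 445 and 401 at 1, 3, 7 and 22 h, against 123 and 129, 299 and 282, 577 and 605, and 252 and 277 on the R848+API09 and R848 arrays. It was lower at 7 h (-0.40 ± 0.09) and higher at 22 h (0.57 ± 0.09), and between these hours the controls declined more than the apilimod array. The 7 h call was lost with R848+API09 alone as the control (adjusted p 0.0571).

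Spred1 with apilimod was at 914 at 7 h, against 1305 and 1450.1 on the R848+API09 and R848 arrays, and at 304 at 22 h, against 545 and 604. It lay below both controls at these hours (-0.58 ± 0.11 and -0.88 ± 0.11), and at 22 h R848 and apilimod moved it in the same direction. Spred2 was at 139.8 at 7 h, against 181 and 180.0, and at 112 at 22 h, against 157 and 181, with differences of -0.33 ± 0.10 and -0.53 ± 0.10. The 7 h call was lost under 6 alternatives, and with averaged probe sets the values were -0.21 at both hours and neither was called. Spry2 was lower at 7 h, at 15.5 against 31.9 and 34.1 (-0.64 ± 0.10, and -1.04 with a pseudocount of 1), a reading under the filter level. Spry1 had differences of -0.06 to 0.04 and no call.

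**Figure D3:**
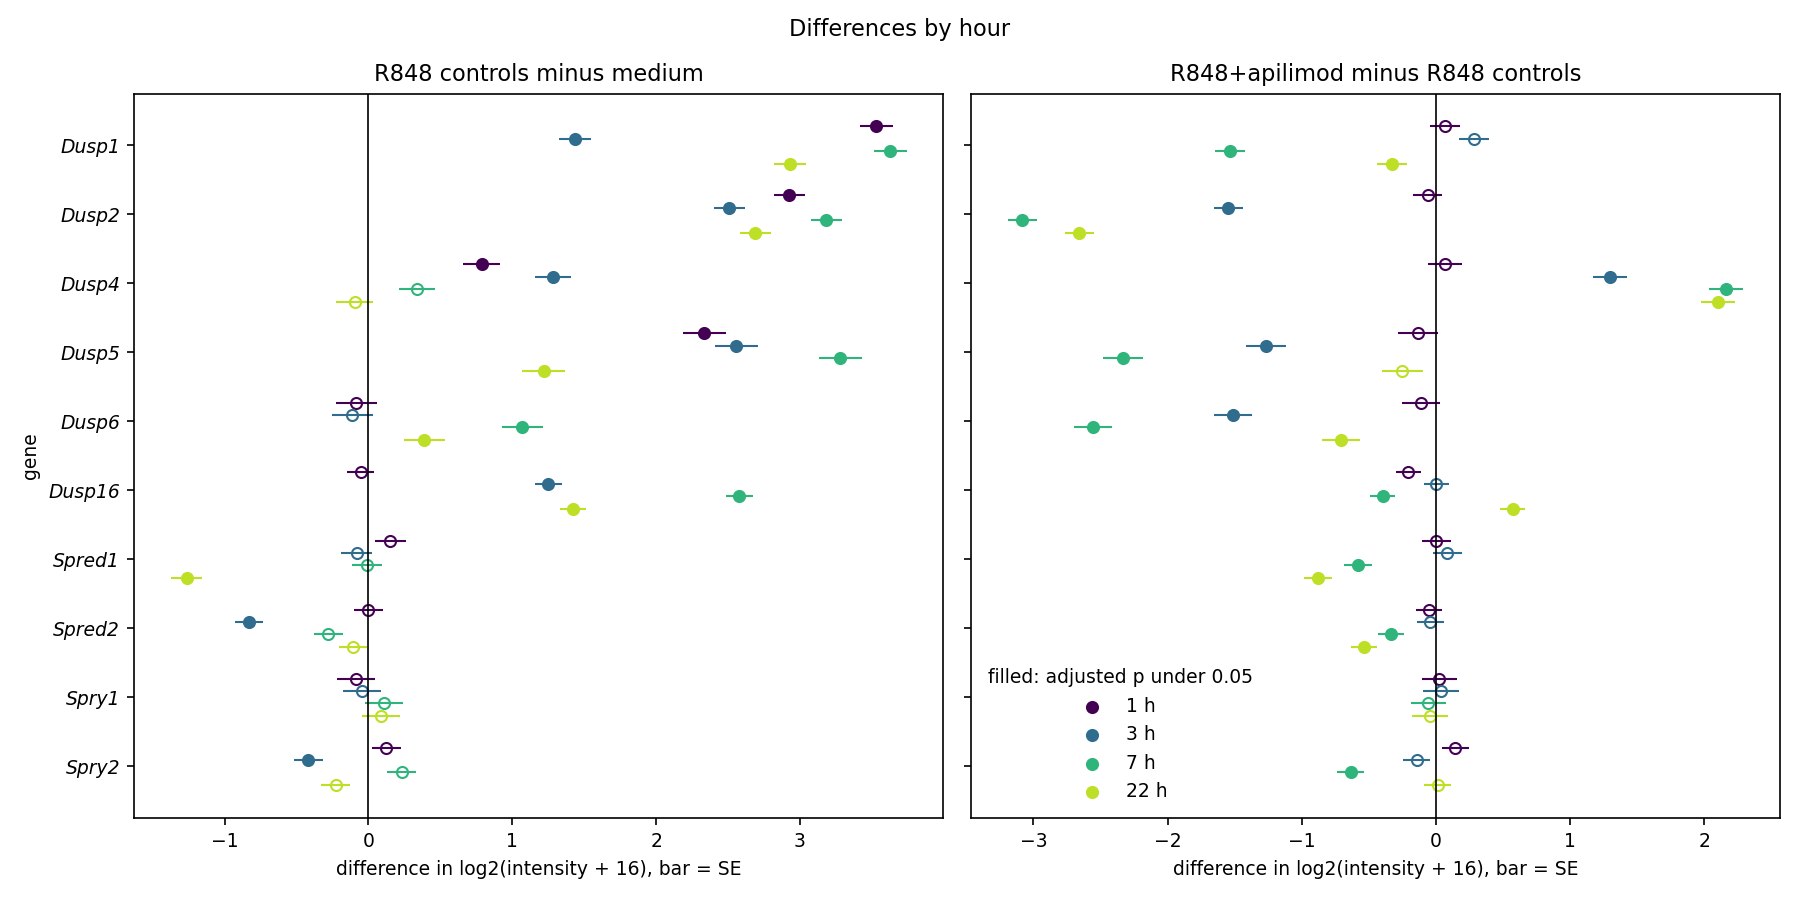
Differences of the 10 genes in log2(intensity + 16) by hour, R848 controls minus medium on the left and R848+apilimod minus R848 controls on the right; points are estimates, bars are 1 SE and filled points have an adjusted p under 0.05. On the right, Dusp4 lies at 1.30 to 2.16 from 3 h on while Dusp2 lies at -1.55 to -3.08, and no point at 1 h is filled.

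The difference made by apilimod itself changed between neighbouring hours. From 1 to 3 h it went up for 1 member and down for 3 (3.06% and 2.05% of all genes), and from 3 to 7 h up for 1 and down for 5 (2.24% and 2.52%). From 7 to 22 h it went up for 5 and down for none (11.3% and 8.77%). Dusp2 moved furthest down in the first step (-1.49 ± 0.15), Dusp1 in the second (-1.82 ± 0.16), and Dusp5 furthest up in the third (2.08 ± 0.21). For Dusp2 and Dusp4 the third step, of 0.42 ± 0.15 and -0.06 ± 0.18, was not called. In the second step the Dusp6 call was lost with a pseudocount of 1 (adjusted p 0.137) and the Spred1 call under 4 alternatives.

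Apilimod and API09, given at the same dose and hours, were also compared directly, as 1 of 3 pairs of arms in a fit that took each hour as a block. Each arm had 1 term in this fit, so a difference that changed between hours added to the spread and widened the intervals. For apilimod against API09 no gene was called (0% higher and 0% lower, limma; 1613 of 12257 genes with an unadjusted p under 0.05), and 4 members had an unadjusted p under 0.05. The largest member differences were Dusp2 at -1.81 ± 0.41 (95% interval -2.70 to -0.93) and Dusp4 at 1.41 ± 0.32 (0.73 to 2.10), both with an adjusted p of 0.123. No gene had a smaller adjusted p, but other genes, such as Phlda1 and Atf3, shared this value. Dusp6 was at -1.17 ± 0.32 (adjusted p 0.144) and Dusp5 at -1.03 ± 0.35 (adjusted p 0.217). Without the 1 h arrays, Dusp2 (-2.38 ± 0.25, adjusted p 0.00114), Dusp4 (1.89 ± 0.24, adjusted p 0.00263) and Dusp6 (-1.53 ± 0.33, adjusted p 0.0274) passed.

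Apilimod against R848 alone had 0% of genes called higher and 0% lower (1588 unadjusted, 4 of them members), with Dusp2 at -1.87 ± 0.41 and Dusp4 at 1.40 ± 0.32. Without the 1 h arrays the same 3 members passed, at -2.48 for Dusp2, 1.81 for Dusp4 and -1.66 for Dusp6. API09 against R848 alone had 0% of genes called higher and 0% lower, 182 with an unadjusted p under 0.05 and no member among them. The 10 member differences were -0.11 to 0.07, and the widest 95% interval, that of Dusp2, ran from -0.94 to 0.83. Differences within such intervals were not detectable in this fit. The SE of Dusp2 was 0.41 here and 0.11 in the fit within hours. These 3 pairs share arms, and their values stand side by side only.

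R848 alone against medium over all hours called 3 members higher and none lower, where 0.8% of genes were higher and 0.196% lower. Dusp1 was at 2.85 ± 0.35 (adjusted p 0.00202), Dusp2 at 2.85 ± 0.41 (adjusted p 0.00591) and Dusp5 at 2.31 ± 0.35 (adjusted p 0.00777). The Dusp2 call was lost without the 3, 7 or 22 h arrays and the Dusp5 call without the 3 h arrays, and all 3 were lost without the hour block. Dusp16, at 1.32 ± 0.34 (adjusted p 0.0721), passed without the 1 h arrays (1.77, adjusted p 0.00306).

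Against the R848+API09 array alone at each hour, apilimod gave no call at 1 h (0% higher, 0% lower). At 3 h, 1 member was higher and 3 lower (3.78% and 2.59% of all genes), with Dusp4 at 1.33 ± 0.16, Dusp2 at -1.52 ± 0.13, Dusp5 at -1.27 ± 0.18 and Dusp6 at -1.45 ± 0.17. At 7 h Dusp4 was higher (2.10 ± 0.15) and 6 were lower (8.27% and 7.42%), led by Dusp2 (-3.07 ± 0.13), Dusp6 (-2.63 ± 0.17) and Dusp5 (-2.48 ± 0.16). At 22 h, 2 were higher and 4 lower (31% and 16.8%), with Dusp4 at 2.24 ± 0.10 and Dusp2 at -2.55 ± 0.09. The single API09 and R848 arrays of an hour differed by -0.08 to 0.20, -0.15 to 0.15, -0.15 to 0.30 and -0.39 to 0.20 over the 10 genes at 1, 3, 7 and 22 h, without a test.

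**Figure D4:**
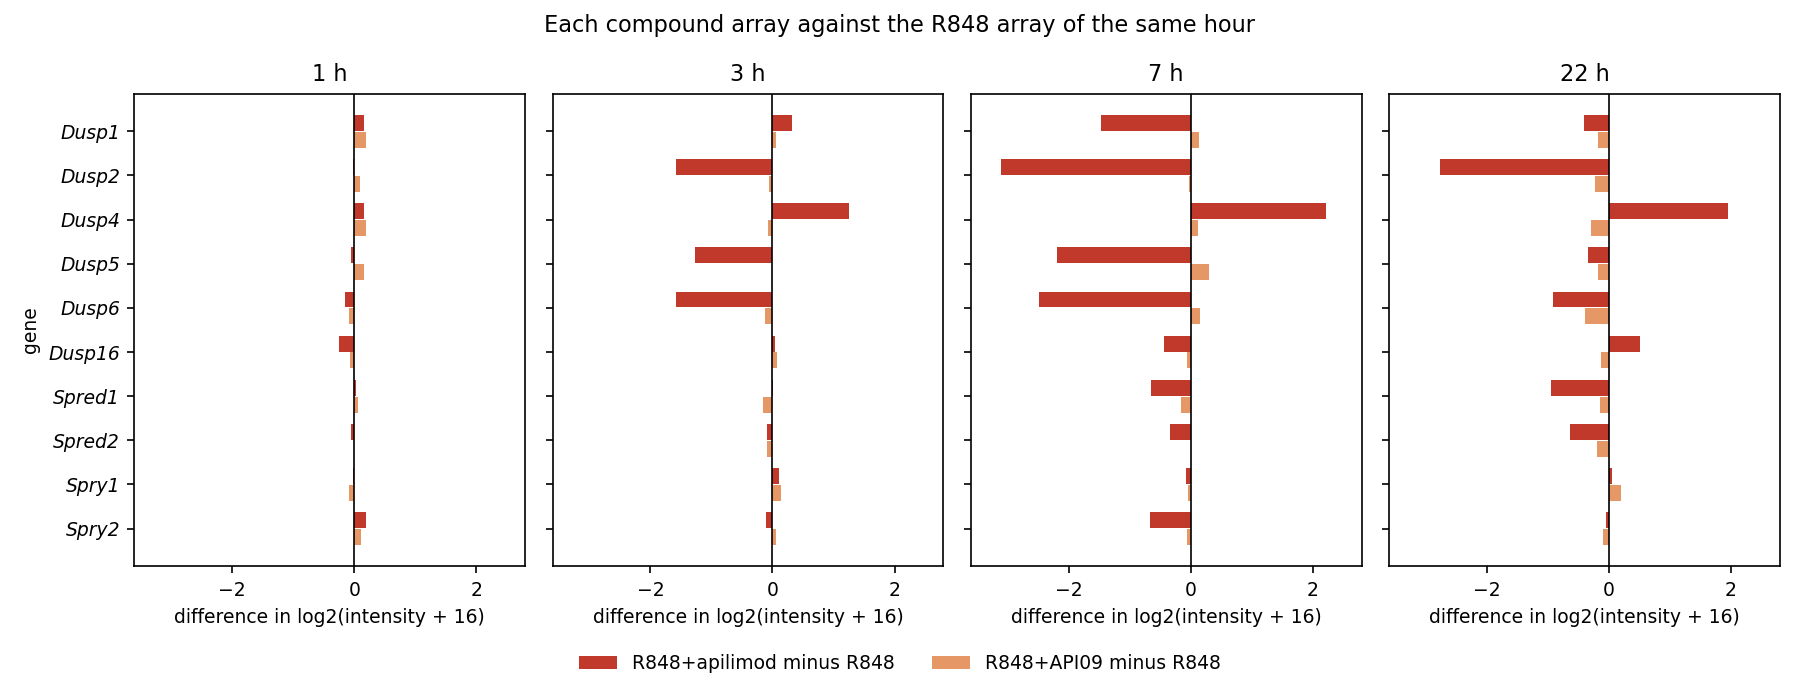
Differences in log2(intensity + 16) of the R848+apilimod array (dark bars) and the R848+API09 array (light bars) from the R848 array of the same hour, 1 panel per hour; each bar is 1 array against 1 array, and all bars of a panel share the R848 array. The API09 bars stay within -0.39 to 0.30, while the apilimod bars of Dusp2 and Dusp4 leave that range from 3 h on.

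The other genes of the pathway were taken from 4 lists, which were also chosen with earlier results of these data known. Of 9 other dual-specificity phosphatases, none was called with R848 at 1 or 3 h, and 2 were lower at 7 h (18.5% of all genes were). By 22 h there were 3 higher and 2 lower (16.5% and 29.1% of all genes). With apilimod 1, 2 and 3 of the 9 were higher at 3, 7 and 22 h, where 5.07%, 9.81% and 20.2% of all genes were, and none lower (4.12%, 9.81% and 14.3%). Dusp14 was at 1.13 ± 0.12 at 7 h and 1.07 ± 0.12 at 22 h, and Dusp3, a phosphatase of ERK and JNK, at 0.55, 0.79 and 0.41 (SE 0.09 each) at 3, 7 and 22 h. The list median with apilimod was 0.03, -0.01 and 0.12, close to that of all genes.

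Of 14 other inhibitors of the Ras-ERK route, 10 were tested. With R848, the number higher was 1, 1, 2 and 1 and the number lower 0, 3, 4 and 5 at 1, 3, 7 and 22 h. Of all genes 0.636%, 6.23%, 11.3% and 16.5% were higher and 0.0653%, 9.19%, 18.5% and 29.1% lower, and the list medians were 0.00, -0.16, -0.23 and -0.26. Errfi1, a feedback inhibitor of the EGF receptor, was higher by 2.41, 1.97 and 2.30 (SE 0.17 each) at 1, 3 and 7 h. With apilimod, at 3 h there were 2 higher and 1 lower, at 7 h 2 of each, and at 22 h only 3 lower, where 5.07%, 9.81% and 20.2% of all genes were higher and 4.12%, 9.81% and 14.3% lower. The list medians were 0.16, 0.00 and -0.06. Errfi1 was lower at 3 h (-1.53 ± 0.17) and 7 h (-1.78 ± 0.17). Rasa3, a Ras GTPase-activating protein, was lower with R848 (-1.12 and -1.67 at 3 and 7 h) and higher with apilimod (0.63 and 1.28; SE 0.12 each).

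Of 28 kinases of the cascades, 21 were tested. With R848, calls upward numbered 1, 2, 6 and 2 and calls downward 0, 2, 4 and 10 at 1, 3, 7 and 22 h, against 0.636%, 6.23%, 11.3% and 16.5% of all genes upward and 0.0653%, 9.19%, 18.5% and 29.1% downward. The list medians were 0.02, -0.06, 0.06 and -0.22. Map3k8, which links Toll-like receptors to ERK, was higher at each hour (1.19, 1.88, 2.28 and 1.75; SE 0.15 each). With apilimod, 0, 1 and 2 kinases were higher and 3, 5 and 5 lower at 3, 7 and 22 h (5.07%, 9.81% and 20.2% of all genes higher, 4.12%, 9.81% and 14.3% lower), with list medians of -0.12, -0.23 and 0.01. Map3k8 was lower at 7 h (-1.13 ± 0.15) and 22 h (-0.84 ± 0.15). Mapk14, which encodes p38 alpha, was lower at 3 h (-0.81 ± 0.08) and 7 h (-0.88 ± 0.08).

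Of 18 genes known to be transcribed in answer to MAP kinases, 17 were tested. With R848, 12, 8, 9 and 8 were higher and 0, 2, 3 and 4 lower at 1, 3, 7 and 22 h, with medians of 1.51, 0.41, 0.81 and 0.34. Of all genes 0.636%, 6.23%, 11.3% and 16.5% were higher and 0.0653%, 9.19%, 18.5% and 29.1% lower at these hours. With apilimod, 1, 3 and 3 were higher and 10, 10 and 6 lower at 3, 7 and 22 h, with medians of -0.66, -0.65 and -0.10, where 5.07%, 9.81% and 20.2% of all genes were higher and 4.12%, 9.81% and 14.3% lower. Zfp36, which encodes an RNA-binding protein that destabilises cytokine mRNAs, was higher with R848 at 1 h (3.30 ± 0.10) and lower with apilimod at 7 h (-2.73 ± 0.10). Fos, a subunit of AP-1, was lower with apilimod at 3 h (-1.85 ± 0.15) and 7 h (-2.21 ± 0.15). Atf3, a stress-responsive transcription factor, was higher with apilimod, at 1.59, 2.33 and 0.90 (SE 0.14 each) at 3, 7 and 22 h.

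The genes whose log2 levels most resembled each member's over the 18 arrays were found by Pearson correlation, as a description, since the arrays share their stimulation. Dusp1 was most like Zfp36 (r 0.91) and Csrnp1 (0.90), and Dusp2 most like Zfp36 (0.92), Phlda1 (0.91) and Dusp5 (0.91). Dusp5 was most like Errfi1 (0.95). Dusp4 had a different set, with Id2 (0.94), Slc41a2 (0.87) and Srxn1 (0.86). Dusp6 was most like Themis2 (0.88), Dusp16 like Fam214b (0.97), Spred1 like Sgk3 (0.98), Spred2 like Cdc6 (0.98), Spry2 like Mideas (0.92) and Spry1 like Jam3 (0.78).

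Other probe sets above the filter gave a check for Spred1 and Spred2 alone, since Dusp1, Dusp2, Dusp4, Dusp5, Dusp6 and Spry1 had 1 probe set each and the second ones of Dusp16 and Spry2 were below the filter. Of the other Spred1 probe sets above the filter, 5 followed the one used (r 0.95 to 1.00 over 18 arrays) and gave apilimod differences of -0.18 to -0.64 at 7 h and -0.59 to -0.96 at 22 h. A sixth, dim one (r 0.62) gave 0.23 at 22 h. For Spred2, 1 other probe set followed (r 0.92), with -0.35 at 7 h and -0.04 at 22 h, and another did not (r -0.20), with 0.04 and -0.06. For R848 against medium at 3 h, the former gave -0.48 and the latter 0.002, where the one used gave -0.83.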

How the data were processed

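Amplified RNA of RAW cells was measured on single-colour Affymetrix arrays for mouse genes, as the labels' protocols state. The deposited intensities are linear values, already summarised per probe set. Their medians differed little between arrays, which was taken to mean that the authors had normalized them; how is not given in the sources used here. Per the submitters' processing notes limma was used, in a version not stated.

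Control probe sets (64) and probe sets with several symbols were left out; symbols were updated through Entrez identifiers (34754 of 34958 matched). Values were tested as log2(intensity + 16) in R 4.3.3 with limma 3.58.1, two-sided, with Benjamini-Hochberg adjustment over 12257 genes. Within hours, each arm and hour had its own mean, with R848+API09 and R848 sharing 1 as controls; over hours, each arm had a term and each hour a block. The code was tested on simulated data. Promoters were searched in 250 bases upstream only, although the bases after the start had been planned too. All 10 genes and, from each list, only genes among its 4 largest differences were to be named. The genes and lists were chosen with earlier results of these data known. Alternatives covered scaling, pseudocount, filter, probe set choice, variance model and the arrays used.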

Additional observations from a re-analysis of the deposited data

Results flagged for a closer look

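The difference between R848+apilimod and the R848 controls was itself compared between neighbouring hours (limma, adjusted over 12257 genes), and 15 such changes passed for these genes. Each is the later hour's difference minus the earlier hour's, in log2(intensity + 16), and the steps share arrays.

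From 1 to 3 h, when 4 genes passed, the difference moved down by the following amounts for the 3 phosphatases that were lower at 3 h: -1.49 ± 0.15 for Dusp2, -1.40 ± 0.20 for Dusp6 and -1.13 ± 0.21 for Dusp5. It moved up for Dusp4 (1.23 ± 0.18).

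From 3 to 7 h it moved down for Dusp1 (-1.82 ± 0.16), Dusp2 (-1.54 ± 0.15), Dusp5 (-1.07 ± 0.21), Dusp6 (-1.04 ± 0.20) and Spred1 (-0.67 ± 0.15), and up for Dusp4 (0.87 ± 0.18). The Dusp1 step is the hour at which its second rise in the controls was missing with apilimod.

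From 7 to 22 h it moved up for Dusp5 (2.08 ± 0.21), Dusp6 (1.85 ± 0.20), Dusp1 (1.21 ± 0.16), Dusp16 (0.97 ± 0.13) and Spry2 (0.65 ± 0.14). The controls of these 5 genes were all lower at 22 h than at 7 h. At 22 h the 3 stimulated arrays had lower upper quartiles than the other arrays. With quantile normalization, and also with centred arrays, 5 members moved up and 0 down from 7 to 22 h. The part of the lower quartiles in the size of the steps was not tested.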

How the results depend on the processing

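The 42 calls of these genes for R848 against medium and apilimod against the R848 controls within hours were recomputed under the alternatives, which gave 480 values: 461 kept their call, 19 lost it and 0 changed direction. Of the 42 results 36 lost no call and 6 did, named in the report. The stricter filter dropped Spry1 and Spry2. For medium at 1 h, 3 members were called, and 5 with quantile normalization or without the R848+API09 array at 22 h, a setting chosen after seeing the data. For medium at 3 h, 1 was called, and 2 with quantile normalization, with centring or without the R848+API09 array at 22 h; leaving out either 0 h array gave 0 to 0. For medium at 7 h, 1 was called, and 0 with a pseudocount of 1 or with no filter, and 0 to 0 without either 0 h array. Over hours, apilimod against API09 and against R848 had 0 called, and 3 each without the 1 h arrays (545 and 481 of all genes). R848 against medium over hours had 3, with 1 without the 3 h arrays and 0 without the hour block. No paired analysis was possible because only the 2 medium arrays at 0 h carry replicate numbers; arms were matched by hour instead, within hours or with the hour as a block. With 1 array per arm and hour, the precision rests on the paired control arrays.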
